A study of Mus musculus with 12 samples.

Results

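The 38 genes described here are interferon-stimulated antiviral genes, a module of host defence, measured in mouse 3T3-L1 preadipocytes before and after adipogenic induction. They were taken from a fixed list of gene symbols and were all found, with 1 identifier each, among the 55414 gene identifiers of the count table. They were sorted by function into 12 subfamilies. The list was drawn up with the difference between the days already known, so the values by day are a description of how the genes were chosen and carry no test. The differences between the constructs were not the ground of the choice and were tested. They come from the same libraries as the day difference, so the tests are not independent of the choice. Whether the choice favoured a direction between the constructs was not tested.

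Polyadenylated RNA was sequenced from 12 libraries in 4 groups of 3. The cells carried FHL2-GFP or a control GFP (CTRL-GFP), so every group carried a GFP construct. Day 0 is the post-confluent culture. Day 2 followed exposure to 170 nM insulin, 1 uM dexamethasone and 0.5 mM isobutylmethylxanthine. Serum was given as 10% for all 4 groups. Promoter, vector and clonality of the constructs, and whether the 3 libraries of a group came from separate cultures, were not found in the labels, so p-values measure only the spread between these libraries. 3T3-L1 is an established fibroblast line that turns into fat cells under this hormone mixture, and FHL2 is a LIM-domain adaptor protein of muscle and connective tissue cells.

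Interferons are secreted when a cell senses foreign or misplaced nucleic acid. Type I interferon binds its receptor, the kinases JAK1 and TYK2 phosphorylate STAT factors, STAT2 among them, and a complex with IRF9 forms that binds the interferon-stimulated response element (ISRE) in promoters. Type II interferon acts through another element, the GAS. The induced proteins bind, cut or tag viral RNA and protein, and fibroblasts keep many of their genes at a low level without infection.

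Library totals ran from 10047708 to 21872139 counts. Between 17977 and 18811 identifiers had a count in a day 0 library, against 12689 to 16131 in a day 2 library. Fhl2 itself did not separate the constructs: it stood at 58.7 to 67.3 CPM (counts scaled by library size with TMM) in the libraries labelled FHL2 and 58.8 to 63.6 in those labelled control at day 0, and at 9.91 to 22.6 against 13.8 to 21.0 at day 2. Which coding sequence the construct holds is not given, so the groups are named here by label only, and every direction between them is that of the labels. Markers of fibroblasts were abundant in all libraries, with Dpp4 at 0 and Cd34 at most at 2.06 CPM. The 10 macrophage markers summed to 9.35 to 20.9 CPM in every group, mostly Cd14 and Lyz2, and the defining markers Ptprc, Itgam and Adgre1 were at or near 0. Adipocyte markers summed to 145 to 201 CPM at day 0 and 201 to 340 CPM at day 2, with Adipoq, Plin1 and Cidec at 0 at day 0. Markers of dendritic cells, lymphocytes and epithelium summed to at most 1.51 CPM in any library, and those of endothelial cells to at most 3.95 CPM. In bulk RNA, fewer cells with a transcript and less transcript per cell cannot be told apart.

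Promoters were taken from RefSeq (build GRCm38.p6) and searched for the letters of the ISRE and GAS elements. A window of 250 bases before to 50 after the start was given for 28 of the 38 genes. The ISRE core GAAANNGAAA, on either strand, was found in 16 of the 28 (57.1%) and in 1079 of the 27025 genes with a window (3.99%). The GAS motif TTCNNNGAA, which reads the same on both strands in its fixed letters, was found in 6 of the 28 (21.4%) and in 9.55% of all genes; the letters of the ISRE and GAS motifs can overlap. The 200 bases upstream of the start are printed for 6 genes with an ISRE core, among them those with deep falls, and for the 2 genes, Trim25 and Ifi35, that differed least between the days in control and hold no ISRE core. Capitals mark the ISRE core or its reverse complement. They lie at chr19:34640689-34640888 on the plus strand, chr19:34583329-34583528 on the plus strand, chr19:34607757-34607956 on the plus strand, chr12:26456453-26456652 on the minus strand, chr3:142620463-142620662 on the plus strand, chr4:156200819-156201018 on the minus strand, chr11:88999203-88999402 on the plus strand and chr11:101448212-101448411 on the plus strand, in the order of the lines.
Ifit1: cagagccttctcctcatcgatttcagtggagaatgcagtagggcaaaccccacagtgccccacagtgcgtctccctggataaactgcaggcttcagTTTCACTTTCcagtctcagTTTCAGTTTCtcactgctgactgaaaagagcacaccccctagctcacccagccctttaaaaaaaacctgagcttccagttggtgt
Ifit3: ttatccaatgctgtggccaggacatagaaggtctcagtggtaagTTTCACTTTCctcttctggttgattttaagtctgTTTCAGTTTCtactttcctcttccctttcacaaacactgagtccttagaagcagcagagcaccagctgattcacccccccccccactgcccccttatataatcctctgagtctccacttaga
Ifit3b: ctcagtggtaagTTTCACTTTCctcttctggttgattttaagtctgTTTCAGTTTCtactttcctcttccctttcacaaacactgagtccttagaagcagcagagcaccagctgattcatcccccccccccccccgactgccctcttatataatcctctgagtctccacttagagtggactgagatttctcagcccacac
Rsad2: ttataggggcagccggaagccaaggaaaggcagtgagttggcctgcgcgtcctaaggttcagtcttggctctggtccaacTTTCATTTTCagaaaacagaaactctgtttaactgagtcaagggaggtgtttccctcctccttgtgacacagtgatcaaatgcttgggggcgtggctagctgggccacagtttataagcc
Gbp2: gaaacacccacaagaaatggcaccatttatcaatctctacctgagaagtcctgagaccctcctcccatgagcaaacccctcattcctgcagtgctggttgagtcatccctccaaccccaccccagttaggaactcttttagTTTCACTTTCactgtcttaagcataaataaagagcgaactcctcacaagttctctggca
Isg15: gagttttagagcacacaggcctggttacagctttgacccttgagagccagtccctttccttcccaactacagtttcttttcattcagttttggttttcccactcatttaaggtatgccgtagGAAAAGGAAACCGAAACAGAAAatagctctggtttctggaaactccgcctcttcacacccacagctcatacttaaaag
Trim25: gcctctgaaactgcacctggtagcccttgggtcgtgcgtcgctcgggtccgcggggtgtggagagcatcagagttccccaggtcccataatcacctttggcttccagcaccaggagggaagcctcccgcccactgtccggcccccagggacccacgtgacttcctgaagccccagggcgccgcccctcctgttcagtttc
Ifi35: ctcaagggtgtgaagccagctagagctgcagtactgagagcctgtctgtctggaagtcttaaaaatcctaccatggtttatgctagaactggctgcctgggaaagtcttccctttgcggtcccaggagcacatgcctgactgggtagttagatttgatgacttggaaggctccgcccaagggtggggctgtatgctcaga
Counted from the start, the core nearest to it began at -85 in Ifit1, -122 in Ifit3, -154 in Ifit3b, -120 in Rsad2, -59 in Gbp2 and -66 in Isg15. A match is a stretch of letters, not a measured binding site. The printed genes were picked by their day values, so nothing is read from the display. Others went the other way in control: Ifit2 (-6.45), Herc6 (-4.88) and Cmpk2 (-4.10) have a window and no core. Stat2 (-1.32) and Oas1a (-1.52) hold a core and fell less.

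At day 0 the module was abundant. The 38 genes summed to 5448, 5421 and 4798 CPM in the libraries labelled control and to 4752, 4784 and 4267 in those labelled FHL2, or 0.469% to 0.589% of all counts. At day 2 the sums were 1216, 1201 and 1047 CPM in the libraries labelled control and 1537, 1493 and 1479 CPM in those labelled FHL2, or 0.0964% to 0.145% of counts. The sums of the constructs thus did not overlap on either day, with the libraries labelled FHL2 lower at day 0 and higher at day 2. At day 0 the gap was narrow, at 4798 CPM in control replicate 3 against 4784 in FHL2 replicate 2.

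**Figure D1:**
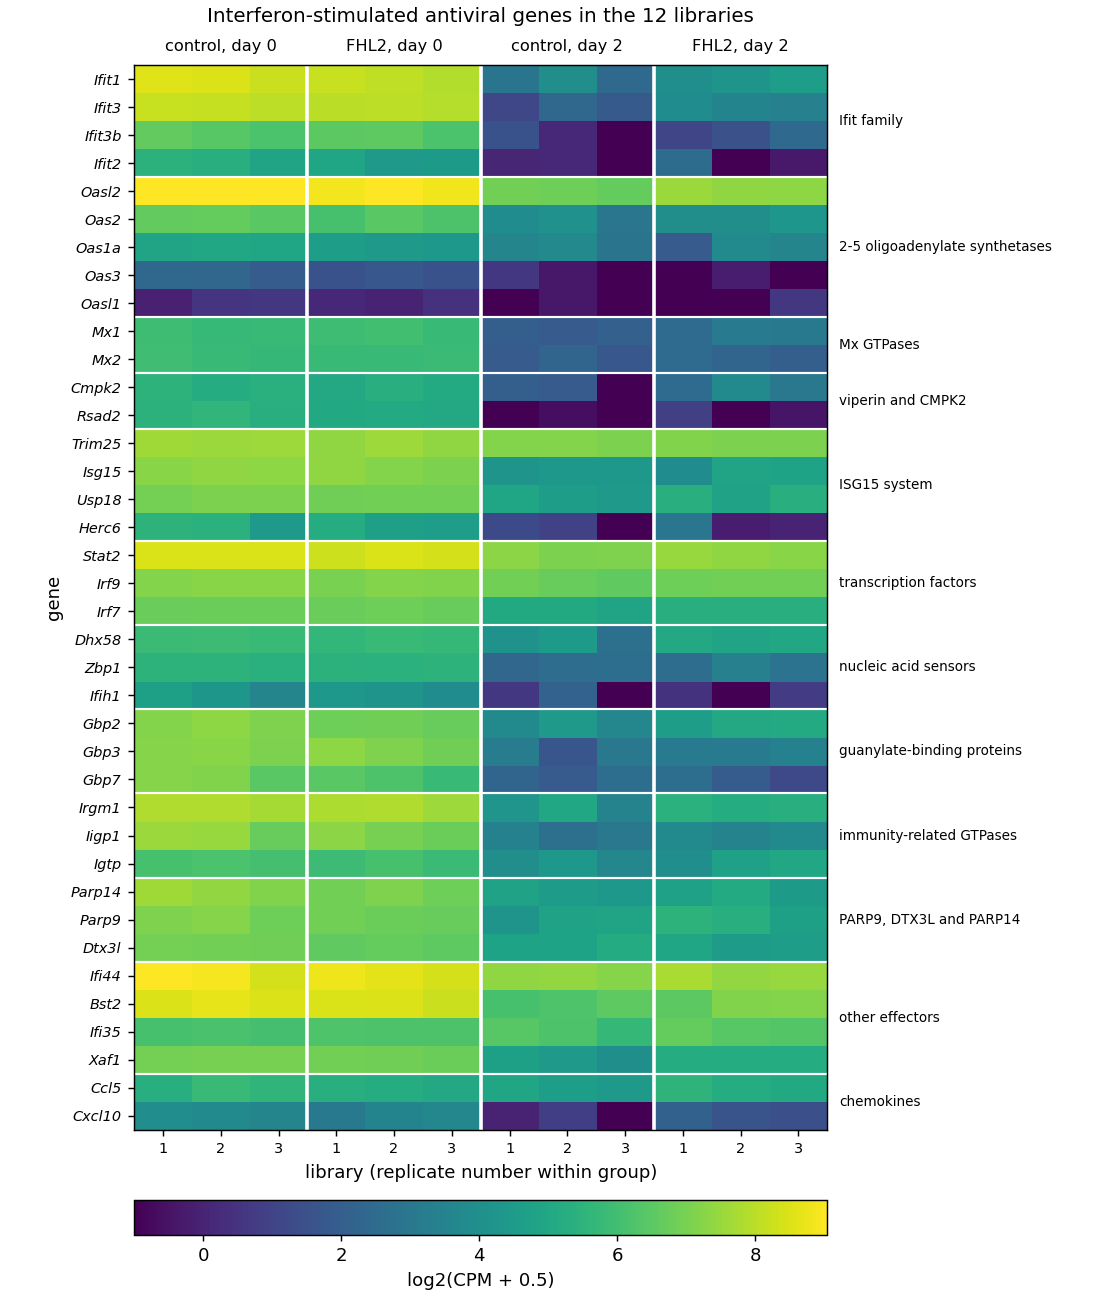
Level of each of the 38 genes (rows, grouped by subfamily, highest mean first) in each of the 12 libraries (columns, by labelled group), coloured by log2(CPM + 0.5). The 6 day 0 columns are brighter than the 6 day 2 columns for nearly every gene, while Trim25, Irf9, Ifi35 and Ccl5 keep much the same colour.

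In the libraries labelled control, 36 of the 38 genes fell from day 0 to day 2 and 0 rose, in a comparison in which 30.8% of all genes tested fell and 26.3% rose (57.1% either way). In those labelled FHL2, 35 fell and 0 rose, beside 30.2% and 25.8% of all genes (56.0% either way). The median log2 difference of the 38 genes was -2.99 in control and -1.98 in FHL2, against -0.14 and -0.11 over all genes tested. The 3 day 2 libraries lay below the 3 day 0 libraries for 37 genes in control and 35 in FHL2, beside 38.9% and 37.0% of all genes. Since this fall chose the genes, nothing is read from these counts. The number of genes detected and the adipocyte markers moved with the day as well, and their part in the fall was not tested.

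The Ifit genes code for proteins that bind viral RNA and block its translation, and all 4 fell, with a median log2 difference of -6.36 in control and -4.12 in FHL2. Ifit1 (ENSMUSG00000034459) stood at 373, 362 and 302 CPM in the libraries labelled control and 294, 270.3 and 234 in those labelled FHL2 at day 0. By day 2 the values were 6.89, 15.3 and 4.97 CPM in control and 15.7, 17.6 and 23.7 in FHL2. The libraries labelled FHL2 were thus all lower at day 0 and all higher at day 2. The log2 difference between the days was -5.22 ± 0.31 (SE, n = 3 a group here and below) in control and -3.81 ± 0.28 in FHL2. Ifit3 showed 291, 289 and 263 CPM in control and 254, 265 and 241 in FHL2 at day 0, and 1.69, 4.63 and 3.14 against 14.4, 11.1 and 9.74 at day 2. Its groups overlapped at day 0 and were apart at day 2. Ifit2 was at 28.6 to 43.5 CPM in control and 20.8 to 29.5 in FHL2 at day 0 and at most 5.34 at day 2, a value of FHL2 replicate 1 alone. Ifit3b fell, at log2 values of -6.27 in control and -4.84 in FHL2, and Ifit2 at -6.45 and -3.69. Of the 50-base runs of the Ifit3 transcript, 51.2% also occur in Ifit3b, so how reads were shared between these copies is uncertain.

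Oligoadenylate synthetases make a second messenger in answer to foreign RNA, and the Oasl proteins are relatives that bind RNA or sensors. Oasl2 was the most abundant, at 528, 527 and 515 CPM in control and 473, 517 and 458 in FHL2 at day 0. The values at day 2 were 119.7, 113 and 102 CPM in control and 186, 166 and 162 in FHL2, with no overlap between the constructs. The replicates of Oasl2 were tight, and the day difference was -2.23 ± 0.092 in control and -1.50 ± 0.089 in FHL2. Oas1a stood at 29.0, 31.2 and 29.8 CPM in control and 24.1, 20.3 and 20.0 in FHL2 at day 0, again without overlap. At day 2, with 11.5, 12.9 and 6.81 CPM in control and 3.19, 13.6 and 11.4 in FHL2, its groups overlapped. Oas1a shares 57.6% of its 50-base runs with Oas1g, so its counts are uncertain. Oas2 ranged over 88.2 to 102 CPM in control and 70.0 to 88.3 in FHL2 at day 0, and over 7.24 to 16.2 and 15.3 to 18.8 at day 2. Oas2 fell, at log2 values of -2.92 in control and -2.24 in FHL2. Oas3 and Oasl1 were near the limit of detection, with 19 and 5 counts (Oas3, control and FHL2) and 4 and 17 counts (Oasl1) over the 3 libraries at day 2, and Oasl1 was not called between the days in either construct.

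The Mx proteins are dynamin-like GTPases that trap viral particles. Mx1 stood at 60.9, 52.3 and 54.9 CPM in control and 60.4, 64.4 and 56.2 in FHL2 at day 0, where the groups overlapped. It stood at 3.58, 3.23 and 3.78 CPM in control and 5.27, 8.28 and 7.75 in FHL2 at day 2, where all 3 libraries labelled FHL2 were higher. Mx2 ranged over 51.0 to 61.5 CPM in control and 53.9 to 56.9 in FHL2 at day 0, and over 2.81 to 4.41 and 3.63 to 5.13 at day 2. The day difference of Mx2 was -3.98 ± 0.21 in control and -3.66 ± 0.20 in FHL2 against -3.99 ± 0.20 and -3.09 ± 0.19 for Mx1.

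Viperin, coded by Rsad2, makes a nucleotide that ends viral RNA chains, from a substrate that CMPK2 helps to supply. Rsad2 (ENSMUSG00000020641) stood at 43.8, 48.5 and 40.4 CPM in control and 33.6, 34.8 and 33.3 in FHL2 at day 0, with every library labelled FHL2 below every control library. At day 2 it was at 0, 0.147 and 0 CPM in control, which is 2 counts in all, and at 1.39, 0 and 0.242 in FHL2, where most of the 24 counts came from replicate 1. The control level was 823-fold higher at day 0 than at day 2 (95% exact interval 228 to 6797, counting error only). Cmpk2 stood at 44.7, 36.7 and 41.3 CPM in control and 32.8, 39.5 and 35.0 in FHL2 at day 0. Day 2 libraries held 3.58, 3.16 and 0 CPM in control and 5.13, 13.1 and 7.57 in FHL2, lower than at day 0 and apart between the constructs.

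ISG15 is a ubiquitin-like tag, HERC6 attaches it, USP18 removes it and also restrains the interferon receptor, and TRIM25 is a ubiquitin ligase of RNA sensing. Isg15 stood at 152, 165 and 163 CPM in control and 164, 146 and 134 in FHL2 at day 0, and at 17.7, 19.8 and 19.8 against 14.2, 28.9 and 27.8 at day 2, with the constructs overlapping on both days. Usp18 stood at 124, 135 and 134 CPM in control and 115, 121 and 121 in FHL2 at day 0, without overlap. By day 2 Usp18 was at 29.2, 24.2 and 21.2 CPM in control and 40.3, 26.8 and 38.6 in FHL2, which overlapped. Trim25 overlapped between the constructs on both days, with 193, 183 and 191 CPM in control and 166, 188 and 168 in FHL2 at day 0. On day 2 Trim25 was at 144, 144 and 132 CPM in control and 142, 134 and 132 in FHL2. Every day 2 library lay below every day 0 library of its construct. Its fall, at log2 values of -0.43 in control and -0.36 in FHL2, was small beside the -4.88 and -3.44 of Herc6. The counts of Herc6 are uncertain because 23.8% of its 50-base runs also occur in another gene model. At day 2 Herc6 was at 1.90, 1.47 and 0 CPM in control. In FHL2 it was at 7.21, 0.354 and 0.484 CPM, so mostly from replicate 1.

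The 3 transcription factors of the module fell, with a median log2 difference of -1.32 in control and -1.02 in FHL2. STAT2 and IRF9 are parts of the complex that binds the ISRE, and IRF7 amplifies the production of interferon. Stat2 stood at 357, 354 and 356 CPM in control and 314, 358 and 338 in FHL2 at day 0. Day 2 gave 157, 134 and 137 CPM in control and 179, 166 and 152 in FHL2. The constructs overlapped on both days for Stat2. Irf9 ranged over 143 to 153 CPM in control and 131 to 144 in FHL2 at day 0, and over 95.1 to 121 and 112 to 120.0 at day 2. Irf7 ranged over 107 to 111 and 105 to 112 CPM at day 0 and over 28.8 to 33.8 and 38.3 to 40.2 at day 2, where those labelled FHL2 were all higher. The log2 difference between the days was -1.32 ± 0.093 in control and -1.02 ± 0.092 in FHL2 for Stat2, -1.76 and -1.46 for Irf7, and -0.48 and -0.25 for Irf9.

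Among the sensors of foreign nucleic acid, DHX58 (LGP2) and IFIH1 (MDA5) bind double-stranded RNA and ZBP1 binds Z-form nucleic acid and triggers cell death. Dhx58 stood at 56.8, 58.6 and 55.9 CPM in control and 49.8, 55.4 and 51.8 in FHL2 at day 0, with the libraries labelled FHL2 all lower. After induction Dhx58 stood at 17.0, 22.0 and 6.05 CPM in control and 32.8, 28.7 and 31.8 in FHL2, with those labelled FHL2 all higher. The day difference of Dhx58 was -1.91 ± 0.30 in control and -0.75 ± 0.28 in FHL2. Zbp1 ranged over 41.2 to 44.9 CPM in control and 41.7 to 44.8 in FHL2 at day 0, and over 4.50 to 5.73 and 5.48 to 9.91 at day 2. The RNA sensor gene Ifih1 was at most 3.97 CPM at day 2. Zbp1 fell, at log2 values of -3.06 and -2.57, and Ifih1 at -3.42 and -4.58, in that order of constructs.

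Guanylate-binding proteins are large GTPases that coat and break open compartments holding microbes, and they answer strongly to type II interferon. Gbp2 (ENSMUSG00000028270) stood at 144, 160.0 and 137 CPM in control and 113, 116 and 104 in FHL2 at day 0. After induction the levels were 13.4, 20.6 and 12.2 CPM in control and 24.2, 33.3 and 34.7 in FHL2. The constructs were apart on both days and in opposite order. Gbp7 stood at 149.7, 141 and 88.7 CPM in control and 87.7, 76.1 and 55.5 in FHL2 at day 0, apart as well, though control replicate 3 lay far below the other 2. At day 2, with 4.36, 3.16 and 5.62 CPM in control and 5.61, 3.26 and 1.82 in FHL2, the groups overlapped. Gbp3 overlapped between the constructs on both days, at 133 to 153 CPM in control and 116 to 161 in FHL2 at day 0, and 2.72 to 9.14 and 8.21 to 10.0 at day 2. Between the days the log2 difference was -3.25 in control and -1.85 in FHL2 for Gbp2, -4.49 and -3.95 for Gbp3, and -4.87 and -4.37 for Gbp7. Gbp7 shares 12.8% of its 50-base runs with other genes, so part of its counts is uncertain.

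The immunity-related GTPases act with the guanylate-binding proteins on membranes around microbes, and IRGM1 regulates the others. Irgm1 stood at 233, 229 and 209 CPM in control and 226, 227 and 192 in FHL2 at day 0, with overlap. The values at day 2 were 18.6, 31.1 and 10.8 CPM in control and 41.7, 36.8 and 38.9 in FHL2, without overlap. The log2 difference between the days was -3.45 ± 0.25 in control and -2.46 ± 0.24 in FHL2. Iigp1 ranged over 6.02 to 10.2 CPM in control and 10.6 to 13.6 in FHL2 at day 2, also without overlap, and Igtp over 12.2 to 19.8 and 15.7 to 30.8, with overlap. For Iigp1 the day difference was -4.29 and -3.40, and for Igtp -2.13 and -1.35. Igtp shares 12.3% of its 50-base runs with Irgm2.

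PARP9 and DTX3L form a complex that joins ADP-ribose and ubiquitin to target proteins, and PARP14 is a related enzyme. Parp14 stood at 195, 169.6 and 141 CPM in control and 119, 137 and 114 in FHL2 at day 0, without overlap. In the day 2 libraries it was at 27.3, 22.4 and 20.2 CPM in control and 26.7, 35.0 and 21.5 in FHL2, with overlap. Dtx3l was apart at day 0, at 117 to 124 CPM in control and 93.3 to 103 in FHL2, and Parp9 overlapped, at 112 to 148 and 104 to 119.5. At day 2 both overlapped between the constructs. All 3 genes fell between the days, at log2 values of -2.85 and -2.15 for Parp14, -2.44 and -1.62 for Parp9, and -1.99 and -1.91 for Dtx3l.

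Of the other effectors, BST2 tethers budding virus to the cell and XAF1 promotes cell death. Bst2 stood at 367, 407 and 369.6 CPM in control and 358, 369 and 303 in FHL2 at day 0, and at 68.9, 77.7 and 92.8 against 90.2, 139.9 and 144 at day 2. Of the libraries labelled FHL2, replicate 1 lay within the control range at day 2 and the other two above it. Xaf1 stood at 124, 126 and 127 CPM in control and 118, 115 and 111 in FHL2 at day 0. Day 2 libraries held 25.9, 21.3 and 15.7 CPM in control and 36.3, 37.0 and 36.3 in FHL2, so the constructs were apart on both days and in opposite order. Ifi44 stood at 527, 476 and 339 CPM in control and 448, 395 and 336 in FHL2 at day 0. By day 2 the values were 167, 172 and 149 CPM in control and 219, 170.4 and 179.9 in FHL2, lower in every library. Ifi35 was the exception to the fall in control, at 70.1, 71.6 and 67.3 CPM in control and 77.1, 74.6 and 75.7 in FHL2 at day 0. On day 2 Ifi35 was at 85.1, 74.4 and 51.6 CPM in control and 101, 85.5 and 82.3 in FHL2. Its day difference was 0.02 ± 0.15 in control and 0.24 ± 0.15 in FHL2, called in neither.

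The chemokines CXCL10 and CCL5 draw T cells and other leukocytes. Ccl5 stood at 40.3, 56.1 and 46.9 CPM in control and 40.0, 36.3 and 32.9 in FHL2 at day 0. Day 2 gave 29.6, 23.7 and 21.3 CPM in control and 45.3, 37.0 and 34.0 in FHL2. The constructs were apart on both days in opposite order, and the day difference was -0.94 ± 0.18 in control and 0.09 ± 0.18 in FHL2, the latter not called. Cxcl10 was low, at 14.8, 13.3 and 11.3 CPM in control and 7.77, 11.1 and 12.2 in FHL2 at day 0. Its day 2 values of 0.492, 1.32 and 0 CPM in control and 3.81, 2.55 and 2.24 in FHL2 rest on 25 and 128 counts.

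**Figure D2:**
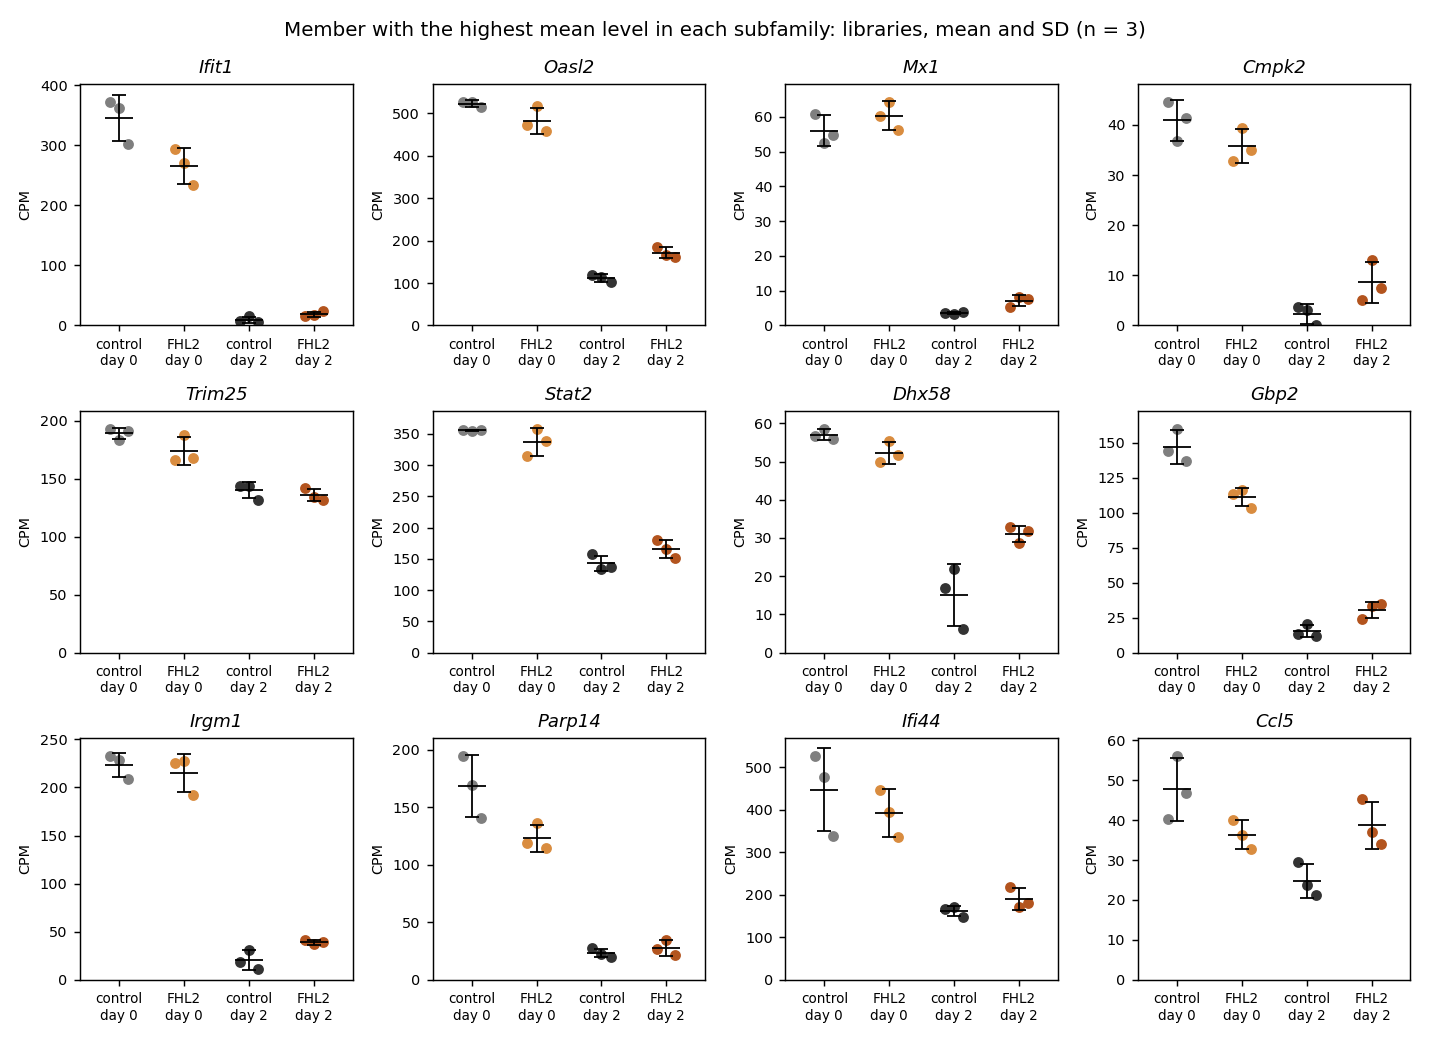
CPM (linear axis from 0) of the gene with the highest mean level in each of the 12 subfamilies, with each library as a point and the mean and SD (error bar) of the 3 libraries of each labelled group. Day 2 lies far below day 0 in most panels, and in Oasl2, Gbp2, Irgm1, Dhx58, Mx1, Cmpk2, Ifit1 and Ccl5 all day 2 points labelled FHL2 lie above those labelled control.

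Levels of different genes were compared per length of the longest transcript. In the libraries labelled control at day 0, Bst2 was highest, at a mean of 481 CPM per kilobase, followed by Isg15 at 211, Oasl2 at 168, Ifit3 at 161, Ifit1 at 130.1 and Ifi44 at 110.1. Oasl1, at 0.368, and Oas3, at 0.876, were lowest. At day 2 the order in control was led by Bst2 at 101 CPM per kilobase and Ifi35 at 51.7, while Ifit3 stood at 1.81 and Ifit1 at 3.41.

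At day 0 the comparison of constructs asked whether the cells differed before induction. Gbp2 was lower in the libraries labelled FHL2, at -0.38 ± 0.083 on the log2 scale, or 1.30-fold (adjusted p = 0.0409, edgeR quasi-likelihood test with Benjamini-Hochberg adjustment over the 14044 genes tested). Of the 38 genes, 1 (Gbp2) was thus called lower and 0 higher, where 0.854% of all genes tested were lower and 0.897% higher (1.75% either way). The next in order were Gbp7 at -0.77 ± 0.18 (adjusted p = 0.0538), Oas1a at -0.46 ± 0.11 (adjusted p = 0.0578), Parp14 at -0.42 ± 0.11 (adjusted p = 0.0678), Ifit2 at -0.62 ± 0.16 (adjusted p = 0.0715) and Ifit1 at -0.35 ± 0.092 (adjusted p = 0.0752), none of which passed. Of the 38 genes, 32 had a negative difference, 12 reached an unadjusted p under 0.05 (16.6% of all genes did), and the median was -0.135 against 0.0057 over all genes. In 12 genes every library labelled FHL2 lay below every control library, beside 11.2% of all genes, and in 1, Ifi35, above, beside 10.7%. By subfamily the median was lowest in the guanylate-binding proteins, at -0.38, and above 0 only in the Mx pair, at 0.075. The call of Gbp2 was lost without control replicate 1 or 2 or without FHL2 replicate 1, 2 or 3, and when all 12 libraries shared a fit. Without control replicate 3, 13 of the 38 genes were lower and 7.15% of all genes were called in either direction.

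At day 2 most values lay on the other side of 0, and 0 of the 34 genes with enough counts passed the same test over 12819 genes. Of the 34, 29 had a positive difference between the libraries labelled FHL2 and control, with a median of 0.53 against 0.014 over all genes. The share of all genes called higher was 0.0624% and lower 0.242%. Oasl2 came nearest, at 0.62 ± 0.14 (adjusted p = 0.0995), then Ifit3 at 1.90 ± 0.50 (adjusted p = 0.164), Gbp2 at 1.00 ± 0.29 (adjusted p = 0.221), Bst2 at 0.65 ± 0.19 (adjusted p = 0.25) and Xaf1 at 0.80 ± 0.25 (adjusted p = 0.29). At an unadjusted p under 0.05 there were 9 genes, beside 8.90% of all genes. In 13 genes every library labelled FHL2 lay above every control library, beside 7.86% of all genes, and in 0 below, beside 7.99%. The 13 were Ccl5, Cmpk2, Cxcl10, Dhx58, Gbp2, Ifit1, Ifit3, Iigp1, Irf7, Irgm1, Mx1, Oasl2 and Xaf1. Among the positive genes, Cmpk2, Cxcl10, Herc6 and Ifit3b were at 0 CPM in control replicate 3. They had enough counts to be tested only with libraries labelled FHL2, so this choice favoured their direction and nothing is read from it. These genes are part of the 29 and of the median, and Cmpk2 and Cxcl10 are also among the 13. The choice thus favoured those values as well. The day 2 libraries varied more than those of day 0, with a biological coefficient of variation of 0.39 against 0.12. DESeq2 called 2 genes (Bst2 and Oasl2; 1.58% of all genes), limma-voom 0, and a fit of all 12 libraries 5 (Gbp2, Ifit3, Mx1, Oasl2 and Xaf1; 2.07% of all genes). With control replicate 3 and FHL2 replicates 1 and 2 of day 2 left out, which had the fewest genes detected, Bst2, Gbp2 and Ifit1 were called, and 4.73% of all genes. The 7 adipocyte markers moved with the labels at day 2 too: each was at a negative difference, with a median of -0.87, 0 called by edgeR and 3 at an unadjusted p under 0.05. They summed to 259 to 340 CPM in control and 201 to 263 in FHL2 at day 2, and Plin1, a lipid droplet protein gene, stood at 14.3, 18.9 and 14.1 CPM in control and 2.63, 6.02 and 3.81 in FHL2. The part of this difference in that of the antiviral genes was not tested.

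Whether the constructs differed in the change from day 0 to day 2 was tested as an interaction, the day 2 difference minus the day 0 difference, from the same libraries as both. By edgeR 0 of the 38 genes passed, beside 0.00693% of all 14435 genes tested (1 gene, which is not of this module). The difference was positive, a smaller fall in the libraries labelled FHL2, in 36 of the 38 genes, beside 52.2% of all genes. The median was 0.76 against 0.020 over all genes. The 36 became 30 without the 3 day 2 libraries of fewest detected genes, and ran from 32 to 37 over libraries left out in turn. Ifit3 came nearest, at 2.05 ± 0.30 (adjusted p = 0.0635), followed by Oasl2 at 0.73 ± 0.12 (adjusted p = 0.0736), Gbp2 at 1.39 ± 0.25 (adjusted p = 0.122), Xaf1 at 0.92 ± 0.20 (adjusted p = 0.251) and Ccl5 at 1.03 ± 0.25 (adjusted p = 0.351). This fit gives both days the same spread (biological coefficient of variation 0.28), below that of day 2 alone (0.39). For Ifit3, Oasl2, Gbp2 and Xaf1 its SE is smaller than in the day 2 fit, so SE and p-values here may be too small. An unadjusted p under 0.05 was reached by 20 genes, beside 6.90% of all genes. The 2 negative values, of Oas3 (-1.26 ± 1.54) and Ifih1 (-1.16 ± 1.18), belong to genes with few counts at day 2. So do positive values, in control and FHL2: Rsad2 with 2 and 24 counts, Oasl1 with 4 and 17, Ifit2 with 16 and 82 and Cxcl10 with 25 and 128. By subfamily the median was highest in viperin and CMPK2, at 2.79, then in the chemokines, at 1.76, and the Ifit family, at 1.74, and lowest in the transcription factors, at 0.29. The first 2 of these medians are each of 2 genes, with Rsad2 and Cxcl10 among them. DESeq2 called 5 genes higher (Ccl5, Gbp2, Ifit3, Oasl2 and Xaf1; 0.506% of all genes), limma-voom 0 with or without library weights, edgeR without a filter on low counts 14 (0.378%), and edgeR without the 3 day 2 libraries of fewest detected genes 7 (1.52%).

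**Figure D3:**
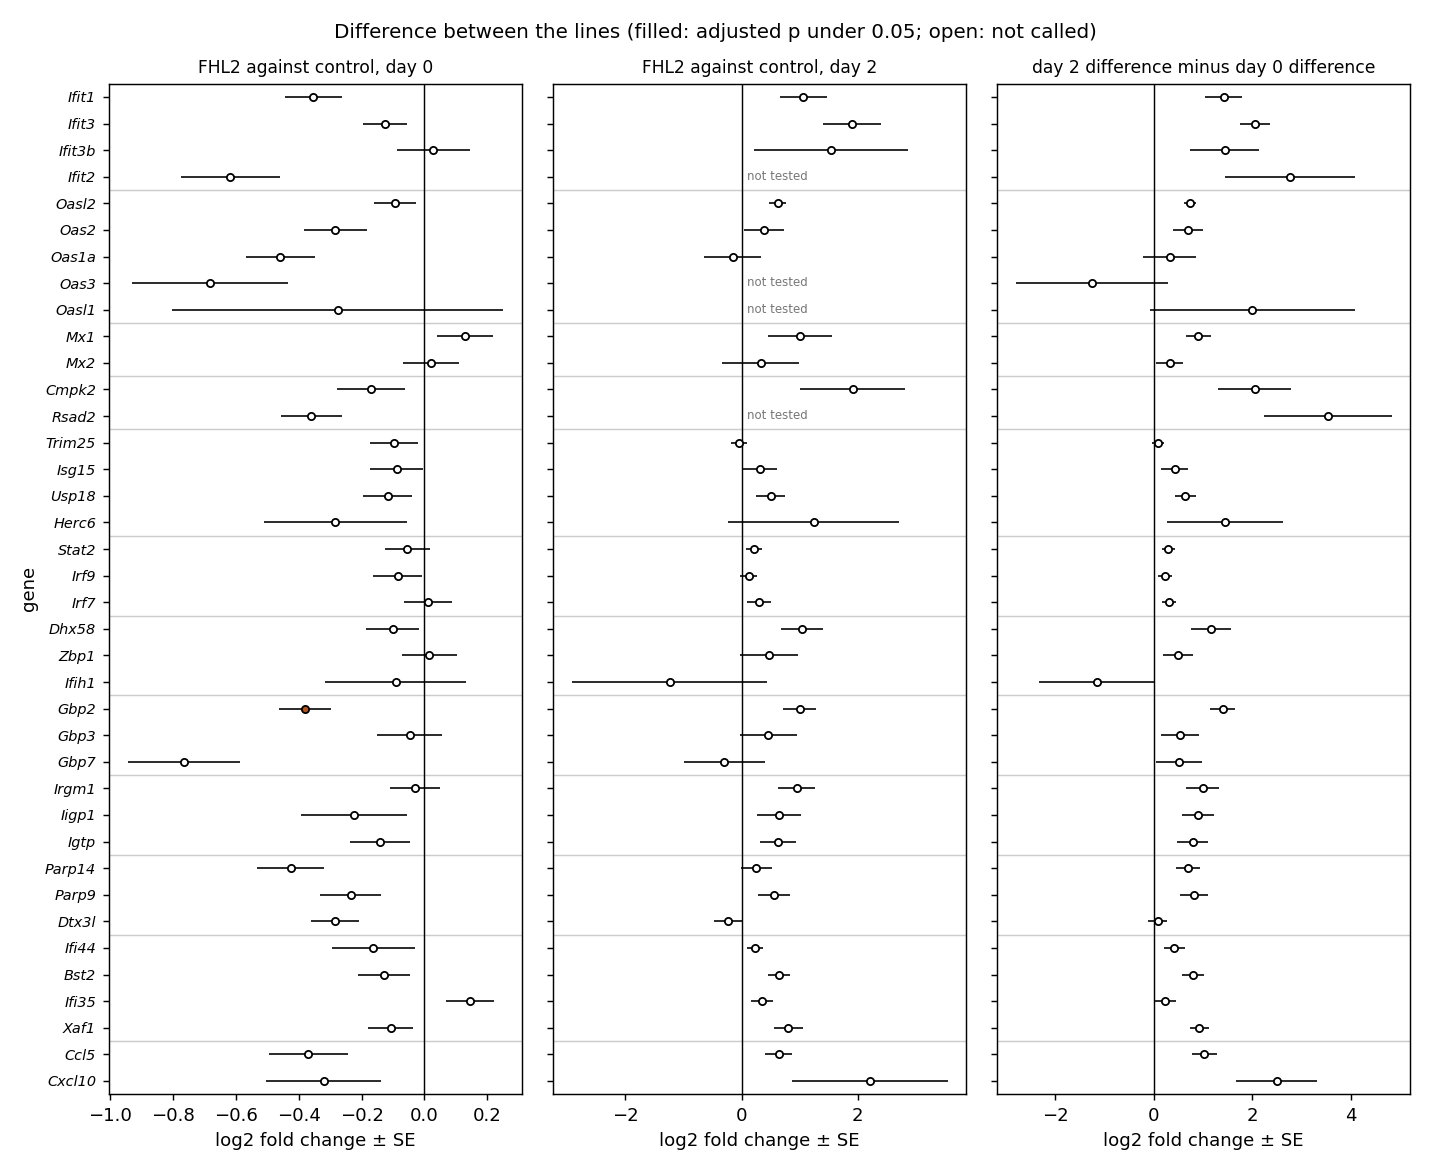
Log2 fold change ± SE between the libraries labelled FHL2 and control at day 0 (left) and day 2 (middle) and the difference of the 2 (right), for each gene, with axes of different width. Points lie mostly left of 0 at day 0 and right of 0 in the other panels; the filled point, Gbp2 at day 0, is the only call.

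The upstream parts of the pathway were read from lists chosen for function. Of 13 interferon genes, 10 had no count in any library, and Ifnb1, Ifna4 and Ifnz had at most 0.323 CPM in a library, so none could be tested. The type I receptor genes were present throughout: Ifnar1 stood at 90.5, 84.8 and 88.0 CPM in control and 82.1, 82.5 and 77.1 in FHL2 at day 0, and at 59.4, 80.4 and 62.6 against 59.8, 56.1 and 65.8 at day 2. Between the days Ifnar1 fell, at log2 values of -0.38 in control and -0.41 in FHL2. Its partner Ifnar2 ranged over 24.7 to 29.8 and 24.8 to 28.2 CPM at day 0 and 35.8 to 40.5 and 29.1 to 36.2 at day 2, in control and FHL2, and differed by 0.49 (called) and 0.32 (not called). Of the type II receptor, Ifngr2 fell, at -0.87 and -0.64, and Ifngr1 was at 0.29 and 0.03, uncalled. Il10rb, shared with type III interferon, was uncalled at -0.03 and -0.28, and Ifnlr1 had no count. By edgeR 0 of the 5 receptor genes tested were called between the constructs on either day or in the interaction, and 0 had an unadjusted p under 0.05.

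Among the kinases, Jak1 was at -0.13 in control and -0.18 in FHL2 between the days and Tyk2 at 0.19 and -0.03, all uncalled, while Jak2, at 37.1 to 56.5 and 37.5 to 46.1 CPM at day 0 and 11.2 to 25.5 and 10.6 to 18.6 at day 2, fell, at -1.52 and -1.41. Stat3, which transmits cytokines of the interleukin-6 kind, rose between the days by 1.57 in control and 1.32 in FHL2, and Irf3, which starts interferon transcription, by 0.86 and 1.23. Of the 9 genes of this list tested, 2 rose and 3 fell in control, 3 rose and 2 fell in FHL2, and 0 were called between the constructs by edgeR on either day or in the interaction, where 3, 1 and 2 genes had an unadjusted p under 0.05. Of all genes tested, 26.3% rose and 30.8% fell in control, and 25.8% and 30.2% in FHL2. The shares of all genes at an unadjusted p under 0.05 were 16.6%, 8.9% and 6.9%.

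Of 14 genes that sense nucleic acid or relay the signal, 12 were tested. In each construct 3 rose and 7 fell between the days. Tlr3, the endosomal receptor of double-stranded RNA, fell, at -2.93 ± 0.31 in control and -3.03 ± 0.31 in FHL2. The kinase gene Tbk1 fell, at -1.69 ± 0.18 and -1.93 ± 0.18. Ddx58, which codes for the RNA sensor RIG-I, fell, at -1.61 ± 0.12 and -1.24 ± 0.12. Tlr4, the receptor of bacterial lipopolysaccharide, fell, at -1.84 and -1.62, and the signalling adaptor gene Traf6 at -1.70 and -1.30. In contrast the adaptor gene Myd88 rose by 1.12 ± 0.10 and 1.26 ± 0.099. Of 16 genes that restrain the pathway, 15 were tested; 7 rose and 3 fell in control, and 4 rose and 4 fell in FHL2. Socs3, an inhibitor of JAK kinases, rose by 1.50 ± 0.16 and 1.67 ± 0.16, and the phosphatase gene Ptpn2 fell, at -1.82 ± 0.25 and -1.36 ± 0.24. Irf2bp1, a corepressor gene, rose by 1.30 and 0.97, and the phosphatase gene Ptpn1 by 1.13 and 0.79. In control the JAK inhibitor gene Socs1 rose by 1.00, and in FHL2 Rnaseh2b, coding for a subunit of RNase H2, fell, at -2.31 and Tnfaip3, a brake on inflammatory signalling, at -1.49. Between the constructs edgeR called 0 genes of either list at day 0, at day 2 or in the interaction. The genes with an unadjusted p under 0.05 numbered 1, 2 and 1 among the sensing genes and 3, 4 and 3 among the restraints. The shares of all genes at such a p were 16.6%, 8.9% and 6.9%. Between the days 26.3% of all genes tested rose and 30.8% fell in control, and 25.8% and 30.2% in FHL2.

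Another 69 interferon-stimulated genes served as a comparison, 65 of them tested between the days. In control 44 fell and 6 rose, with a median of -2.05, and in FHL2 42 fell and 6 rose, with a median of -1.85. Over all genes tested, 30.8% fell and 26.3% rose in control, and 30.2% and 25.8% in FHL2. Ddx60, a helper of RNA sensing, fell from 97.4, 86.3 and 49.3 to 1.97, 1.18 and 0 CPM in control and from 60.0, 55.4 and 53.3 to 7.56, 4.32 and 2.78 in FHL2. The largest falls among genes of at least 5 CPM included Samd9l, a translation inhibitor, at -4.98 in control and -3.93 in FHL2. Slfn8 of the Schlafen family was at -4.43 and -3.80 and Phf11d at -5.21 and -3.26. Tgtp2, an immunity-related GTPase, was at -4.89 and Slfn9 at -3.62 in FHL2. The genes that rose in control and FHL2 were Ifitm2, Ifitm3, Ifi27, Trafd1, Shisa5 and Lgals9. Ifitm3, which blocks viral entry at membranes, rose by 1.33 ± 0.076 in control and 1.79 ± 0.077 in FHL2, Ifitm2 by 1.74 ± 0.11 and 2.04 ± 0.11, and Ifi27 by 2.34 ± 0.14 and 2.04 ± 0.13. At day 0, 3 of 64 were called between the constructs by edgeR, beside 1.75% of all genes. Of the 64, 48 had a negative difference, with a median of -0.16. An unadjusted p under 0.05 was reached by 24, beside 16.6% of all genes. Ifi30, a lysosomal thiol reductase, stood at 58.5, 60.3 and 55.2 CPM in control and 34.5, 37.1 and 29.7 in FHL2, a difference of -0.76 ± 0.099 (adjusted p = 0.00371). Slfn2, of the Schlafen family, stood at 21.9, 27.0 and 26.2 CPM in control and 14.4, 16.1 and 16.4 in FHL2. It differed by -0.65 ± 0.13 (adjusted p = 0.0253). Ifi27 stood at 23.4, 24.4 and 27.3 CPM in control and 37.9, 33.4 and 39.4 in FHL2, a difference of 0.58 ± 0.11 (adjusted p = 0.0211). At day 2 and in the interaction 0 were called by edgeR, with 6 of 55 at an unadjusted p under 0.05 at day 2, and 13 of 65 in the interaction, where 47 values were positive. The shares of all genes at such a p were 8.9% and 6.9%.

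The day difference followed the GC content of genes in this series, so the values are also given with an offset for it. All genes tested were split into 5 equal classes by GC content, and their median log2 difference in control ran from -1.79 in the class of lowest GC content to 0.73 in that of the highest. The 38 genes had a median GC content of 47.5%, against 49.4% over all genes. With an offset that removes the GC trend in each library, 36 genes fell and 1 rose in control, with a median of -2.70, and 32 fell and 1 rose in FHL2, with a median of -1.61. Under this offset 39.6% of all genes tested were called either way in control and 39.1% in FHL2. The gene that rose was Ifi44, whose GC content is 40.4%; its difference turned from -1.46 to 0.44 in control and from -1.05 to 0.62 in FHL2. Ifi35 turned the other way, to -0.49 in control, where it was called, and to -0.25 in FHL2.

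**Figure D4:**
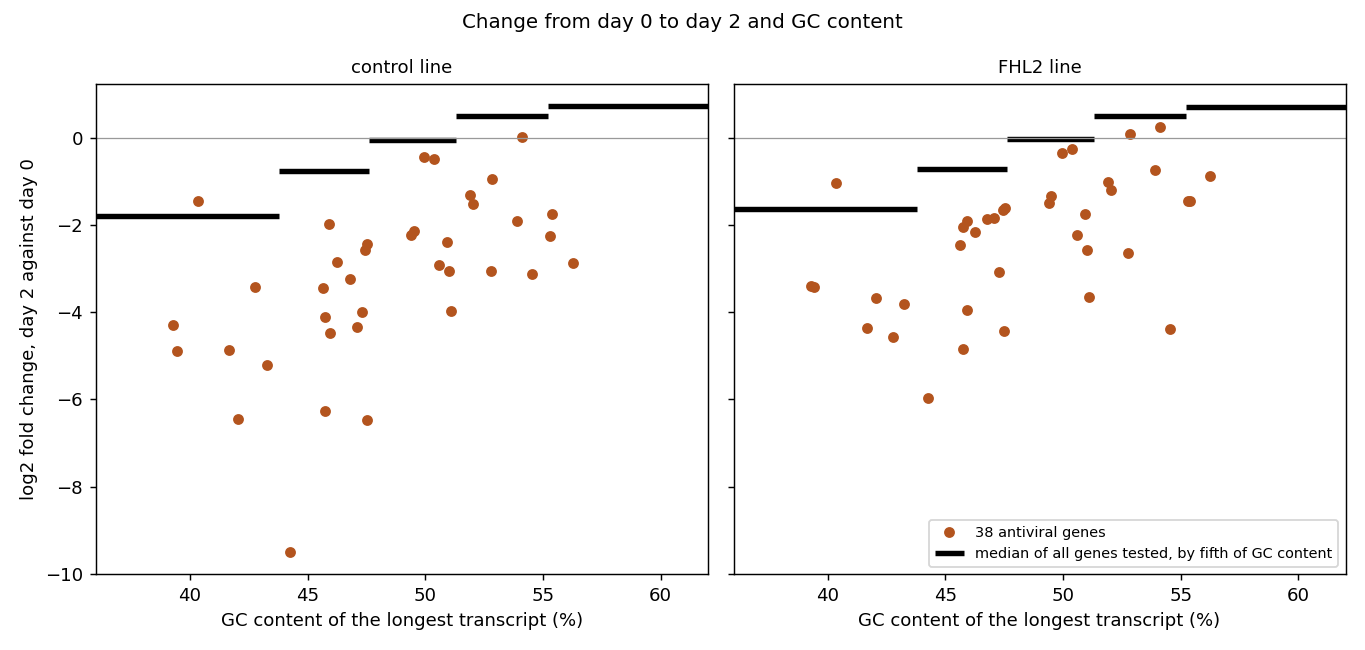
Log2 fold change from day 0 to day 2 (vertical) against GC content of the longest transcript (horizontal) in the libraries labelled control (left) and FHL2 (right); points are the 38 genes and bars the medians of all genes tested in 5 equal classes of GC content, the outer 2 cut at the edges of the plot. The bars rise to the right, and as the day values chose the genes, nothing is read from the place of the points against them; Rsad2 in control, with 2 counts at day 2, is drawn at its fitted value.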

How the data were processed

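The deposited table holds read counts per gene identifier for all 12 libraries, which the authors made from stranded poly-A libraries. Per the submitters' processing notes the build was GRCm39 and the tools included HTSeq 0.11.0, HISAT2 2.2.1, limma, R 4.1.0, Trimmomatic 0.39 and FastQC 0.11.9. Neither the labels nor the notes give their order, settings or annotation, or the strand setting of the counting, so overlapping genes may share reads. Counting error is small beside the spread between libraries at these totals, except for genes with few counts.

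The genes and all gene lists were chosen with earlier results of these data known. Samples were grouped by their labels. Counts were scaled by TMM, low genes were removed by filterByExpr, and the quasi-likelihood test of edgeR 4.0.16 (R 4.3.3) was run over all genes with Benjamini-Hochberg adjustment, calling genes at an adjusted p under 0.05. The comparisons of constructs used the 6 libraries of that day, and the differences between days and the interaction used all 12. Fitting only a day's libraries kept the wider spread of day 2 out of day 0. The fit of all 12 libraries gives both days the same spread, so its SE and p-values may be too small for day 2. SE is the log2 fold change divided by the square root of F. Alternatives were other scalings and filters, DESeq2 1.42.0, limma-voom (limma 3.58.1), a replicate block, a GC offset, the other choice of libraries, and libraries left out. The scripts were tested on simulated data, which had less spread than the fits of each day gave. This check left out the day difference in FHL2, and passing it asked only for the sign of the changed genes.

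Values in every library are given for at least the gene of each subfamily with the highest mean and for those of the 38 called between the constructs. Named from the pathway lists are receptors, ligands and kinases with a count, and otherwise up to 5 called genes of at least 5 CPM with the largest changes. Other named genes were chosen after their values were seen. Gene lengths and GC content come from the longest transcript of the GENCODE annotation given, promoters from RefSeq, and copies from runs of 50 bases shared with other genes' transcripts. Coordinates are those of GRCm38.p6 and were not joined to the counts. Some genes of the lists are not reported here by name.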

Additional observations from a re-analysis of the deposited data

How the results depend on the processing

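In brackets stands the share of all genes called under the same setting. At day 0 the 1 gene called lower (1.75%) became 2 with RLE (1.58%) or upper-quartile scaling (1.69%), 10 without a filter on low counts (3.82%), 3 with at least 1 CPM in 3 libraries (1.86%), 7 by DESeq2 (3.84%), 9 with the GC offset (5.68%) and 0 with all 12 libraries (0.0485%), and ranged from 0 to 13 over libraries left out in turn (0.401% to 7.15%). At day 2 the 0 called higher became 2 by DESeq2 (1.58%) or without the filter (1.07%), 5 with all 12 libraries (2.07%) and, with 4.73%, 3 without the 3 day 2 libraries of fewest detected genes (control replicate 3, FHL2 replicates 1 and 2). In the interaction the 0 called higher became 1 with upper-quartile scaling (Ifit3; 0.0139%), 14 without the filter (0.378%), 5 by DESeq2 (0.506%) and 7 without those 3 libraries (1.52%), and ranged from 0 to 3 over libraries left out, the 3 (Gbp2, Ifit1 and Ifit3) without control day 2 replicate 2 (0.0398%). Between the days 1 gene was higher with the GC offset in control and in FHL2, and 1 in control without those 3 libraries. The GC offset moved the median of all genes between the days from -0.14 to 0.030 in control and from -0.11 to 0.017 in FHL2.

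Signs turned as follows, with the lowest and highest value over libraries left out in turn; none of these values was called before or after except those of Ifi44 and that of Ifi35 in control with the GC offset. Between the constructs at day 0, Stat2 ran from -0.11 to 0.0028 (above 0 without FHL2 replicate 1) and Irgm1 from -0.077 to 0.024 (without FHL2 replicate 3). At day 2, Oas1a ran from -0.52 to 0.26 (0.031 without control replicate 2, 0.26 without FHL2 replicate 1) and Gbp7 from -0.78 to 0.027 (without FHL2 replicate 3), and Parp14 turned to -0.22 without the 3 libraries. In the interaction, Oas1a ran from -0.057 (without FHL2 day 2 replicate 2) to 0.71, Trim25 from -0.0088 and Ifi35 from -0.0031 (both without control day 2 replicate 3) to 0.14 and 0.37, and Gbp7 from -0.0029 (without FHL2 day 2 replicate 1) to 0.81; without the 3 libraries Trim25 turned to -0.042, Gbp7 to -0.30 and Ifi35 to -0.12. Between the days, the GC offset turned Ifi44 to 0.44 in control and 0.62 in FHL2, Ifi35 to -0.49 and -0.25, and Ccl5 to -0.29 in FHL2. Ccl5 in FHL2 also turned to -0.084 without the 3 libraries and ran from -0.014 (without FHL2 day 2 replicate 1) to 0.19. Ifi35 in control turned to -0.0058 with RLE, -0.0083 without the filter, -0.0055 by DESeq2 and -0.0015 with the block, and ran from -0.12 (without control day 2 replicate 1; -0.017 without control day 0 replicate 3) to 0.26. The causes were not tested. Few counts limit Oas3, Oasl1, Ifit2, Rsad2 and Cxcl10 at day 2.

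With the replicate number as a block, 8 genes were lower at day 0 (Dtx3l, Gbp2, Gbp7, Ifit1, Ifit2, Oas1a, Parp14 and Rsad2; 4.61% of all genes were called), and 0 were called at day 2 or in the interaction. Deviations of same-numbered libraries correlated at -0.152 to 0.278, with 5 of 18 over 0.1. Those of differently numbered libraries correlated at -0.387 to 0.255, with 3 of 36 over 0.1. These ranges overlap, so whether the numbers mark pairs is not settled, and the main fits use no pairs.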

Other observations

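Several of the antiviral genes are neighbours in the genome (RefSeq, GRCm38.p6). Cmpk2 and Rsad2, which code for enzymes of the same nucleotide pathway, lie head to head on chromosome 12 with 12763 bases between their starts. Their log2 differences between the constructs in the change from day 0 to day 2 were 2.04 ± 0.74 for Cmpk2 and 3.54 ± 1.3 for Rsad2 (edgeR adjusted p = 0.619 for both). The values moved with the processing, from 1.32 to 3.11 for Cmpk2 and from 1.28 to 6.62 for Rsad2 over the main fit and its alternatives, with adjusted p from 0.00014 to 1.00 and from 0.00575 to 1.00, and Rsad2 rests on 2 counts in control and 24 in FHL2 at day 2. The starts of Ifit3 and Ifit3b lie 24428 bases apart, and those of Oasl1 and Oasl2 26306 bases apart. These neighbours differed in level: Oasl2 stood above 100 CPM in every library and Oasl1 below 1.1 CPM.

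By promoter, the 16 genes with an ISRE core in their window had a median log2 difference between the days of -3.44 in the libraries labelled control, and the 12 with a window and no match had -2.11. As the day values chose the genes, nothing is read from these medians. In the comparison list of other interferon-stimulated genes, 28 of 53 genes with a window (52.8%) held the core.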
